A study of Mus musculus with 10 samples.

Results

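Imprinted genes were followed as a set in the ventral hippocampus (vHpc) of ovariectomized (OVX) mice. The set was 43 symbols from 18 imprinted loci, chosen by name but with earlier results of these data known. All 43 were listed among the 24421 symbols of the expression table. A mean of at least 0.5 CPM over the 10 libraries was reached by 37 of them, 6 noncoding RNAs and 31 coding genes. CPM gives a gene's reads per 1000000 reads assigned to genes in the same library. The 6 symbols under that limit were H19 with a mean of 0.398 CPM, Calcr with 0.128 CPM, Peg12 with 0.121 CPM, Phlda2 with 0.0376 CPM, Nespas with 0.0237 CPM and Snurf, which was listed at 0 in all 10 libraries. All animals were female C57BL/6 mice, OVX at about 70 to 80 days of age, either wild type (WT) or heterozygous for a BDNF Val66Met knock-in (BDNF Met/+, Het-Met), a germline change present in every cell. After 2 weeks of recovery the mice drank 300 nM estradiol (E2, about 0.7 µg per day) in 0.1% ethanol, or 0.1% ethanol alone (vehicle), for 6 weeks. In all, 10 libraries were analysed, each from RNA pooled from 2 animals: for WT, 2 with vehicle (replicates 1 and 3) and 2 with E2 (replicates 1 and 2), and for Het-Met, 3 with vehicle and 3 with E2. The vHpc is a mixture of cell types, and fewer cells of a type cannot be told apart from less RNA per cell.

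An imprinted gene is read mainly from the copy inherited from a single parent, according to DNA methylation that was set in the egg or the sperm and is kept in the body's cells. Imprinted genes lie in clusters, and many clusters pair coding genes with a long noncoding RNA made from the other parental copy. In the brain they are known for roles in growth, neuronal development, maternal behaviour and synapses. Total RNA counts add both parental copies together, so the parental origin of the reads was not measured here.

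The Dlk1-Dio3 locus on mouse chromosome 12 shows how closely noncoding and coding members can lie. Meg3 (chr12:109541001-109571726), Rian (chr12:109603940-109661716) and Mirg (chr12:109729764-109749460) are noncoding RNAs of the plus strand, made from the maternal copy. Dlk1 (chr12:109452823-109463336), Rtl1 (chr12:109589193-109600330) and Dio3 (chr12:110279068-110281097) are coding genes made from the paternal copy, with Rtl1 on the minus strand. Positions follow GENCODE vM21 on GRCm38 (mm10). Within the bounds of Mirg lie 14 annotated miRNA hairpins, all on its own strand, against 3 in Rian and 1 in Meg3. Within the bounds of Rtl1 lie 6 hairpins on the opposite strand, and each of their 11 mature miRNAs was found as a full reverse complement in the annotated Rtl1 transcript. The mature miRNAs themselves were not measured in these libraries. Sequences are from RefSeq on GRCm38, written 5′ to 3′ with the seed (bases 2 to 8) in capitals, and the first 5 are shown because they are antisense to Rtl1.
miR-127-3p: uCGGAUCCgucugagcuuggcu
miR-136-5p: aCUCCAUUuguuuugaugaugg
miR-431-5p: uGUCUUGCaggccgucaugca
miR-433-3p: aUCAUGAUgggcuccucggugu
miR-434-3p: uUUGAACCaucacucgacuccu
The next 6 lie inside Mirg, the noncoding member with the largest genotype difference described below. Among the 26 mature miRNAs inside Mirg there were 25 different seeds, and the pair with a shared seed was miR-453 and miR-496a-5p.
miR-134-5p: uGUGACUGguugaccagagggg
miR-154-5p: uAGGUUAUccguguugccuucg
miR-382-5p: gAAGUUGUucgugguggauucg
miR-410-3p: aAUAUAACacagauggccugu
miR-453: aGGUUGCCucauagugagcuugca
miR-496a-5p: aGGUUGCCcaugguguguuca

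Promoter windows, 250 bases before to 50 bases after a RefSeq start, were found for 35 members, and 8 members (Rtl1, H19, Nespas, Peg10, Sgce, Peg13, Trappc9 and Impact) were not included. The letters TGCCGC, the core bound by the imprint-keeping zinc finger protein ZFP57 when methylated, were present on either strand in 13 of 51 member windows (25.5%), against 11.6% of all 32851 windows. These windows are not independent, since 2 windows of Mest hold the same matches and Snrpn and Snurf share 1 window. The difference in share was not tested. The letters CGCCATNTT, the core of a YY1 motif, were present in 2 of 51 (3.92%), those of Ube3a and Mkrn3, against 2.38% of all windows. The full estrogen response element, GGTCA and TGACC with 3 bases between them, was in 0 of 51 member windows and in 0.07% of all windows. A match describes letters in the window and not binding. The bases before the start of 4 members are shown because values of each are described below, with matches to TGCCGC or CGCCATNTT, or to their reverse complement, in capitals. Peg3 and Usp29 start back to back on opposite strands, their windows shared 263 of 300 bases, and the 163 bases between both starts (chr7:6730420-6730582, minus strand) held no match.
Peg3: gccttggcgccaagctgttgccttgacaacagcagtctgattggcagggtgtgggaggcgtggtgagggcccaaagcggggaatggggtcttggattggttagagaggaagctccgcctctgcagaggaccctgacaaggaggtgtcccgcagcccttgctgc
The Ube3a bases (chr7:59228500-59228749, plus strand) held a YY1 match.
Ube3a: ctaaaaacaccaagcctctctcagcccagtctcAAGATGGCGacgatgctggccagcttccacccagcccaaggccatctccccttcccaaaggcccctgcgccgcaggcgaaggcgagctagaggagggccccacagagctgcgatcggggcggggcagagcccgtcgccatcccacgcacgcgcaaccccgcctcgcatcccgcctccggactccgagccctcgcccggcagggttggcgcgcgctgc
The Mest bases (chr6:30737800-30738049, plus strand) and the Meg3 bases (chr12:109540746-109540995, plus strand) held the ZFP57 core on the opposite strand, at 2 places and at 1 place.
Mest: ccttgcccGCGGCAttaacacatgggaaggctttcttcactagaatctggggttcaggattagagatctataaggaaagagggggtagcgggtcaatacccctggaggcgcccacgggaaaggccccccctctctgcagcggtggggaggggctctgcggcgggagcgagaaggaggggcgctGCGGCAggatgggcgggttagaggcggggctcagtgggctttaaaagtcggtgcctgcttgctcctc
Meg3: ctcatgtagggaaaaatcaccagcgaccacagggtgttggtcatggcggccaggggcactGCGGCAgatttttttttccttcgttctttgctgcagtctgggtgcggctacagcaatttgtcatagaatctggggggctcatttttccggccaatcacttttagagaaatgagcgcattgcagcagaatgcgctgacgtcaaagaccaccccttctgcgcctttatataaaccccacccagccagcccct

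Between 19820184 and 23267410 reads were counted on genes per library, so that 1 read was worth 0.0430 to 0.0505 CPM. Summed markers of hippocampal excitatory neurons lay between 7632 and 9304 CPM in the 10 libraries, and all 8 were detected. The summed CPM of 13 choroid plexus markers, a secretory tissue next to the hippocampus, differed far more: 359 and 1625 in vehicle-treated WT, 3706 and 2757 in E2-treated WT, 4118, 2137 and 2751 in vehicle-treated Het-Met and 2294, 798 and 532 in E2-treated Het-Met libraries. These sums were higher under E2 in WT and mostly lower under E2 in Het-Met mice. Summed markers of the pituitary lay between 2.42 and 210.3 CPM and those of the hypothalamus between 2.32 and 7.75 CPM. The strand setting of the counting was not given in the sources used here, so reads of overlapping genes on opposite strands cannot be told apart. Such overlap covered 23.1% of the exonic bases of Mest and 17.8% of those of Copg2 (with each other), 14.3% of Usp29 (with Zim3), 9.17% of Zrsr1 (with Commd1), 8.83% of Gnas (with Nespas) and 8.74% of Ube3a (with its antisense RNA Snhg14). Snrpn shares exonic bases with Snurf on the same strand, and the values of both are uncertain.

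Imprinted genes spanned a wide range of levels. Levels between genes were compared as mean CPM per kb of exonic sequence. Nnat, a small proteolipid of neurons, and Meg3 stood highest with 338 and 337 CPM per kb, and their order was not tested. They were followed by the nucleosome assembly family gene Nap1l5 (192), the G protein subunit gene Gnas (158), the noncoding RNA Peg13 (66.8), the translation regulator Impact (49.4), the neuronal MAGE-family gene Ndn (42.7) and Blcap (38.6). Between 10 and 25 CPM per kb came Zrsr1 (20.6), Herc3 (18.8), Peg3 (18.0), Inpp5f (17.5), Rian (17.0), Copg2 (14.2) and Trappc9 (11.3). Mest had 6.42, Grb10 5.87, Plagl1 5.82, Igf2r 5.17, Dlk1 4.88, Dio3 4.80, Peg10 4.26, Mirg 4.25, Ube3a 3.38, Zdbf2 3.07, Sgce 2.32, Usp29 1.98 and Magel2 1.10 CPM per kb. Below 1 CPM per kb were Ddc (0.988), Snrpn (0.834), Zim1 (0.532), Rtl1 (0.383), Slc38a4 (0.374), Kcnq1ot1 (0.338), Airn (0.295), Mkrn3 (0.237) and Asb4 (0.194). Kcnq1ot1 reached a mean of 31.4 CPM before division by its length.

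None of the 37 members passed the adjusted test in any of the 7 comparisons. The test was limma on log2(CPM + 0.5) over all 15081 genes, with an adjusted p under 0.05 and a fold change above 1.3, and fold changes on that scale understate changes of low genes. Over all genes the same rule called 0.0133% for E2 in WT, 0% for E2 in Het-Met, 0.00663% for genotype under vehicle, 0.0265% for genotype under E2, 0.0729% for the interaction, 0.0265% for genotype over both treatments and 0.00663% for E2 over both genotypes. At an unadjusted p under 0.05 there were 7 members for E2 in WT (background 4.04% of all genes), 5 higher (2.37%) and 2 lower (1.66%), and 5 for E2 in Het-Met (5.45%). Genotype gave 6 members under vehicle (10.7%), 7 under E2 (11.7%) and 7 over both treatments (16.6%), of which 1, Mirg, was higher in Het-Met (9.33%) and 6 lower (7.27%). The interaction, which tests whether the E2 difference is unlike in WT and Het-Met mice, gave 8 members (5.42%), and E2 over both genotypes gave 3 (3.22%). The share of members was above the background in all 7 comparisons, by least for genotype over both treatments. The 7 comparisons are not independent, since they reuse the same 4 group means and some members share a locus. Members were also chosen with earlier results of these data known, so these shares do not test imprinted genes as a set. These counts rest on few libraries, since leaving out 1 library gave as few as 2 members for E2 in WT (without vehicle-treated WT replicate 1) and 3 for the interaction (without E2-treated WT replicate 2). The values below are described member by member, and every p named as unadjusted failed the correction. DESeq2 on the recovered reads called Peg3 for genotype under vehicle and Dlk1 for genotype under E2, while edgeR's quasi-likelihood test called neither.

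**Figure D1:**
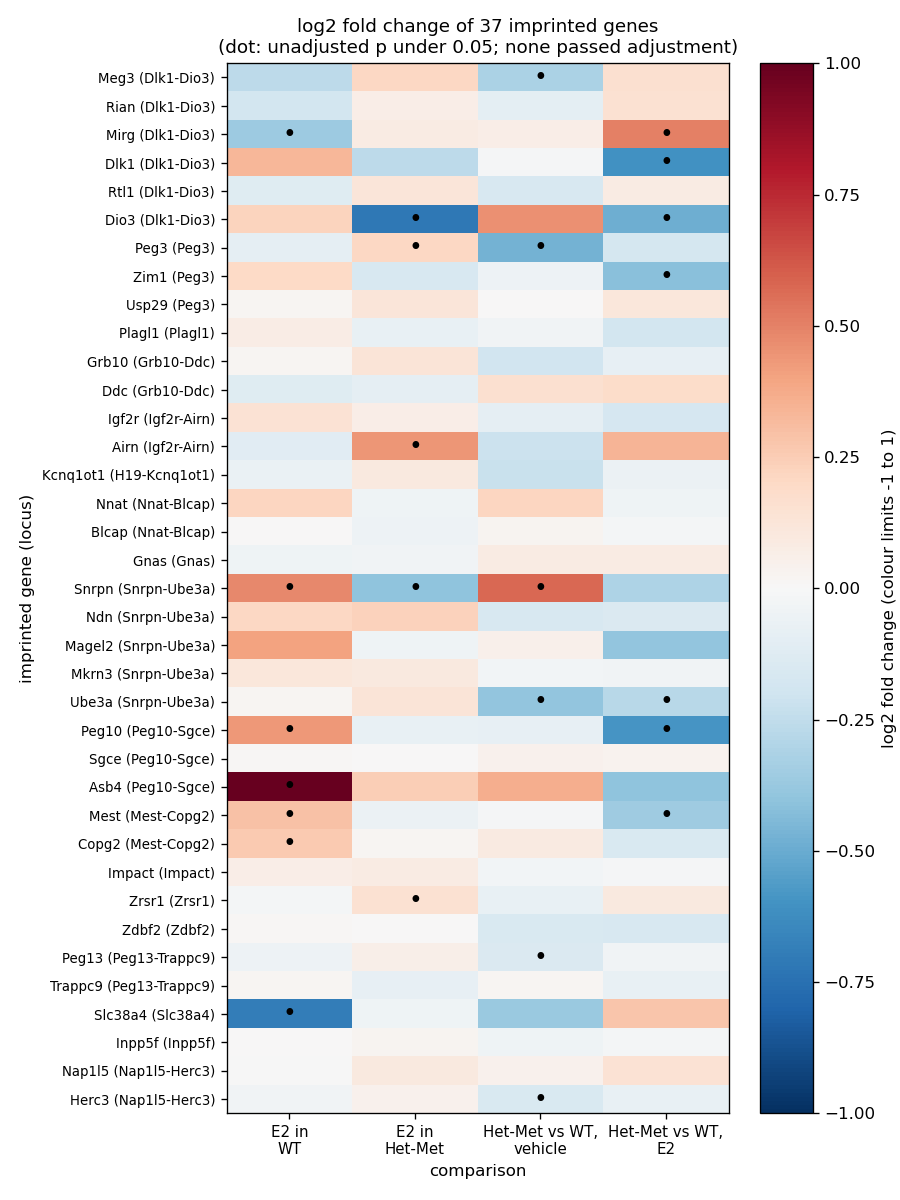
The log2 fold change of the 37 tested imprinted genes (rows, with the locus) is coloured for 4 comparisons (columns), red for higher and blue for lower, with colour limits at -1 and 1. Dots mark an unadjusted p under 0.05, of which there are 7, 5, 6 and 7 from left to right, and no member passed the adjusted test.

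In the Dlk1-Dio3 locus under E2, Mirg was higher and Dlk1 and Dio3 were lower in Het-Met than in WT libraries, all at an unadjusted p only. Meg3, a long noncoding RNA of the nucleus, was at 8095 and 5752 CPM in vehicle-treated WT, 5787 and 5577 CPM in E2-treated WT, 5800.4, 5023 and 5691 CPM in vehicle-treated Het-Met and 7311, 5340.2 and 6501 CPM in E2-treated Het-Met libraries. A single vehicle-treated WT library stood above the other 9, and the groups overlapped. Rian, the host of many small nucleolar RNAs, was at 357 and 296 CPM in vehicle-treated WT, 272 and 301 CPM in E2-treated WT, 352, 288 and 277 CPM in vehicle-treated Het-Met and 319.6, 322 and 314 CPM in E2-treated Het-Met libraries. E2-treated Het-Met libraries lay above both E2-treated WT libraries, and the vehicle groups overlapped. Mirg, the host of a miRNA cluster, was at 36.2 and 26.2 CPM in vehicle-treated WT, 23.3 and 24.4 CPM in E2-treated WT, 36.8, 30.7 and 29.6 CPM in vehicle-treated Het-Met and 39.7, 29.6 and 33.7 CPM in E2-treated Het-Met libraries. Both E2-treated WT libraries lay below the other 8, and the remaining groups overlapped.

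The log2 fold change of Meg3 for Het-Met against WT was -0.31 ± 0.14 (SE, unadjusted p = 0.0450, adjusted p = 0.458) under vehicle and 0.16 ± 0.14 (SE) under E2, with an interaction of 0.47 ± 0.20 (SE, unadjusted p = 0.0349, adjusted p = 0.845). Without vehicle-treated WT replicate 1 the difference under vehicle was -0.07 and the interaction 0.22. Mirg was higher in Het-Met than in WT under E2 by 0.51 ± 0.14 (SE, unadjusted p = 0.00276, adjusted p = 0.329), and over both treatments by 0.29 ± 0.10 (SE, unadjusted p = 0.0121, adjusted p = 0.186), the latter 0.17 (unadjusted p = 0.103) without vehicle-treated WT replicate 3. Without that library the Meg3 difference under vehicle was -0.56 and the interactions 0.72 for Meg3 and 0.67 for Mirg. With all libraries the Mirg interaction was 0.44 ± 0.20 (SE, unadjusted p = 0.0432, adjusted p = 0.879). Without vehicle-treated WT replicate 1 the Mirg interaction was 0.21. In WT mice its E2 difference was -0.36 ± 0.16 (SE, unadjusted p = 0.0340, adjusted p = 1.00), which moved to -0.13 without vehicle-treated WT replicate 1. Rian differed by 0.15 ± 0.10 (SE) between genotypes under E2, with an adjusted p of 0.559. The 3 noncoding RNAs of the locus were all lower under E2 in WT and higher under E2 in Het-Met libraries by group mean, with Rian at -0.18 ± 0.11 and 0.07 ± 0.09 and Meg3 at -0.26 ± 0.16 and 0.20 ± 0.13 (log2 fold change ± SE). None of these passed the adjusted test, and the comparisons for E2 in WT and in Het-Met use different libraries.

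Dlk1, a transmembrane protein related to Notch ligands, was at 27.0 and 27.9 CPM in vehicle-treated WT, 31.1 and 38.7 CPM in E2-treated WT, 30.8, 32.1 and 20.5 CPM in vehicle-treated Het-Met and 20.9, 22.1 and 24.9 CPM in E2-treated Het-Met libraries. Both E2-treated WT libraries lay above all E2-treated Het-Met libraries, and the vehicle groups overlapped. The log2 fold change of Dlk1 was -0.61 ± 0.16 (SE, unadjusted p = 0.00159, adjusted p = 0.317) for Het-Met against WT under E2 and -0.01 ± 0.16 (SE) under vehicle, with an interaction of -0.60 ± 0.22 (SE, unadjusted p = 0.0173, adjusted p = 0.704). DESeq2 gave the difference under E2 an adjusted p of 0.0223, limma on the E2-treated libraries alone 0.0483 and edgeR 0.249. Dio3, the enzyme that inactivates thyroid hormone, was at 8.47 and 9.02 CPM in vehicle-treated WT, 8.66 and 12.2 CPM in E2-treated WT, 14.5, 12.7 and 9.74 CPM in vehicle-treated Het-Met and 5.82, 6.32 and 10.1 CPM in E2-treated Het-Met libraries. Vehicle-treated Het-Met libraries lay above both vehicle-treated WT libraries, and 2 of 3 E2-treated Het-Met libraries lay below all other libraries. Its E2 difference in Het-Met was -0.72 ± 0.19 (SE, unadjusted p = 0.00188, adjusted p = 0.668), its genotype difference under E2 -0.49 ± 0.21 (SE, unadjusted p = 0.0361, adjusted p = 0.405) and its interaction -0.94 ± 0.30 (SE, unadjusted p = 0.00687, adjusted p = 0.539). Without E2-treated WT replicate 2 the genotype difference under E2 was -0.25. Rtl1, a coding gene derived from a retrotransposon, was at 2.78 and 2.38 CPM in vehicle-treated WT, 2.24 and 2.41 CPM in E2-treated WT, 1.85, 2.98 and 2.04 CPM in vehicle-treated Het-Met and 2.45, 1.80 and 3.46 CPM in E2-treated Het-Met libraries. All groups of Rtl1 overlapped, and its 7 log2 fold changes lay between -0.16 and 0.24. The summed choroid plexus markers were also higher in the E2-treated WT and vehicle-treated Het-Met groups than in the other groups. With these sums as a covariate, chosen after seeing the data, the interaction was -0.77 for Dlk1 and -1.35 for Dio3. The unadjusted p-values from limma were 0.0496 for Dlk1 and 0.0118 for Dio3. In the same fit the interaction was 0.37 for Meg3 (unadjusted p = 0.273) and 0.42 for Mirg (unadjusted p = 0.221).

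**Figure D2:**
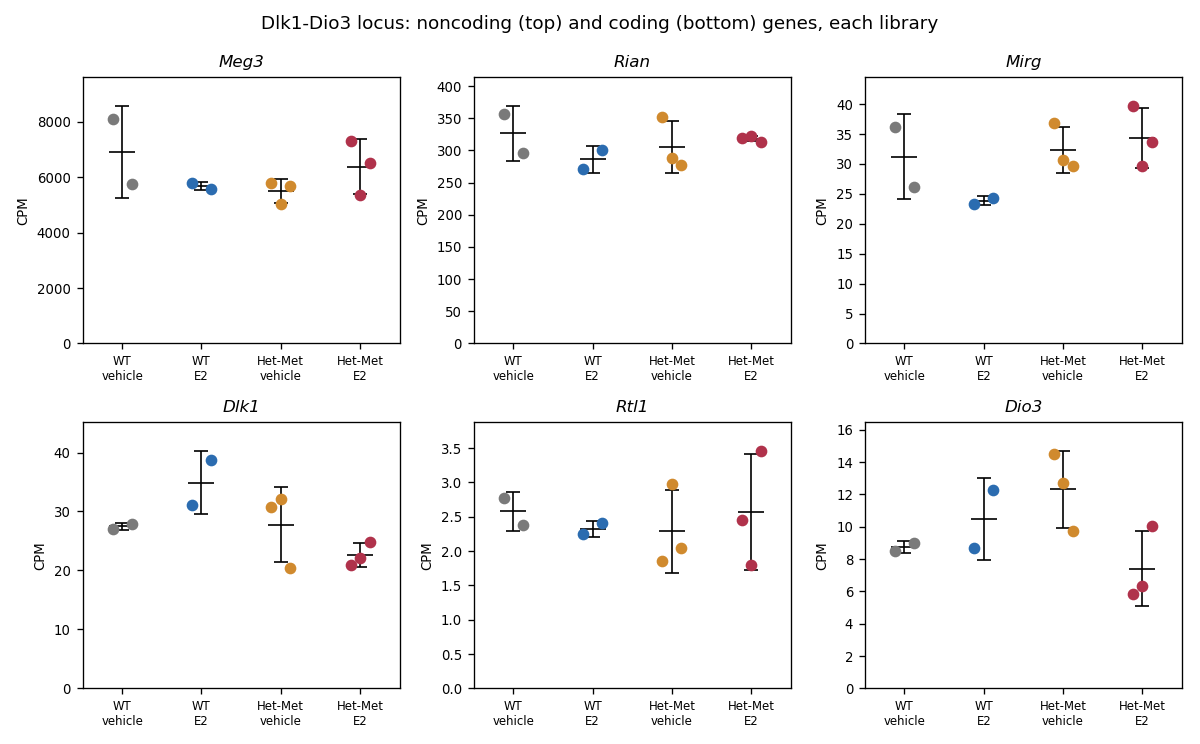
CPM of the 6 members of the Dlk1-Dio3 locus in each library (points), with the group mean and SD (bars), for 2 WT libraries and 3 Het-Met libraries per treatment. Mirg is lowest in E2-treated WT libraries, where the group mean of Dlk1 is highest, and Rtl1 shows no separation of groups.

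Set against each other within a library, the summed CPM of Meg3, Rian and Mirg were 222 and 155 times in vehicle-treated WT, 145 and 111 times in E2-treated WT, 131, 112 and 186 times in vehicle-treated Het-Met and 263, 188 and 178 times in E2-treated Het-Met libraries those of Dlk1, Rtl1 and Dio3. The log2 of that ratio was lower by group mean under E2 in WT (difference -0.55) and higher under E2 in Het-Met mice (difference 0.56), against a pooled SD of 0.34 within groups. Without vehicle-treated WT replicate 1 the difference in WT was -0.29, below that SD. For Het-Met against WT it differed by -0.41 under vehicle and 0.71 under E2, and under vehicle by -0.15 without vehicle-treated WT replicate 1. The ratio of Meg3 to Mirg, between noncoding members of the same strand, was 223 and 219.8 in vehicle-treated WT, 248 and 229 in E2-treated WT, 158, 163 and 192 in vehicle-treated Het-Met and 184, 180.2 and 193 in E2-treated Het-Met libraries. All 4 WT libraries lay above all 6 Het-Met libraries in that ratio, a separation noticed after the values were seen and not tested. The ratio of Meg3 to Rian overlapped between genotypes, with 18.5 to 22.7 in WT and 16.5 to 22.9 in Het-Met libraries. Meg3 holds most of the summed noncoding CPM, so the summed ratio is close to that of Meg3 to the coding genes.

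**Figure D3:**
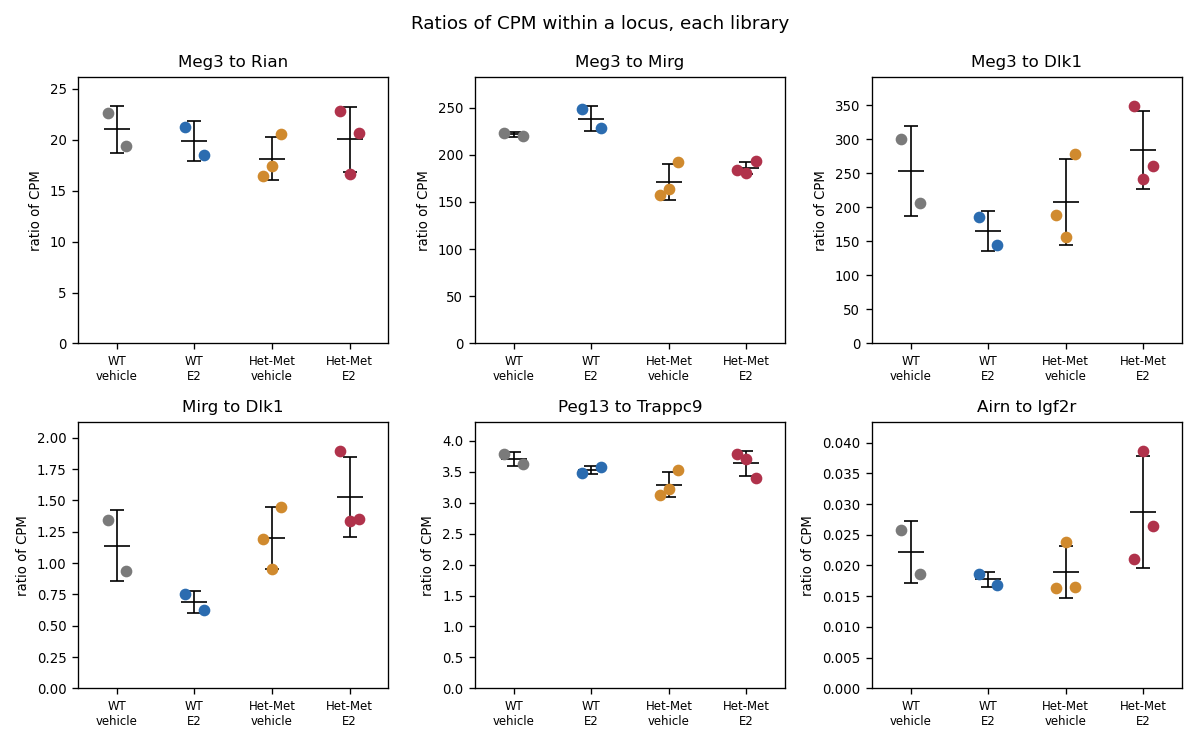
Ratios of CPM between members of a locus in each library (points), with the group mean and SD (bars). The Meg3 to Mirg ratio is 219.8 to 248 in WT and 158 to 193 in Het-Met libraries, and the other ratios overlap between genotypes.

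Genotype separated 4 members across both treatments: in Peg3, Ube3a, Herc3 and Peg13 every WT library lay above every Het-Met library, a separation seen in 1.72% of all genes, and no member lay the other way (2.63% of all genes). Under quantile normalization 2 members (Herc3 and Ube3a) and after removal of the gene length trend 2 members (Peg13 and Ube3a) showed the separation. Under E2 alone, 12 members lay lower in all Het-Met than in all WT libraries (14.7% of all genes) and 7 higher (21.1%), and under vehicle 6 lower (9.89%) and 3 higher (14.8%). Over the 37 members the median log2 fold change was -0.03, against 0.02 over all genes, and 25 of 37 were below 0, against 42.7% of all genes. Peg3, a zinc finger protein known for its part in maternal behaviour, was at 298 and 264 CPM in vehicle-treated WT, 267 and 260.2 CPM in E2-treated WT, 189.9, 214 and 203 CPM in vehicle-treated Het-Met and 259, 224 and 219 CPM in E2-treated Het-Met libraries. Both WT groups lay above both Het-Met groups, and E2-treated Het-Met libraries lay above vehicle-treated Het-Met libraries. The log2 fold change of Peg3 was -0.47 ± 0.08 (SE, unadjusted p = 4.54e-05, adjusted p = 0.139) under vehicle and -0.32 ± 0.06 (SE, unadjusted p = 6.28e-05, adjusted p = 0.0948) over both treatments, a fold of 0.799. DESeq2 gave adjusted p-values of 0.000261 under vehicle and 0.000266 over both treatments, the latter with a fold under the limit of 1.3, and edgeR gave 0.0987 and 0.0909. Usp29, which shares its promoter bases with Peg3, was at 32.3 and 36.9 CPM in vehicle-treated WT, 35.5 and 34.4 CPM in E2-treated WT, 38.4, 35.1 and 30.8 CPM in vehicle-treated Het-Met and 35.5, 36.3 and 41.8 CPM in E2-treated Het-Met libraries. The vehicle groups of Usp29 overlapped, E2-treated Het-Met lay above E2-treated WT libraries, and its genotype difference was 0.06 ± 0.07 (SE, 95% interval -0.10 to 0.22), while the interval for Peg3 was -0.45 to -0.20. Zim1, the maternally expressed neighbour, was at 4.49 and 4.31 CPM in vehicle-treated WT, 5.61 and 4.68 CPM in E2-treated WT, 4.41, 3.68 and 4.64 CPM in vehicle-treated Het-Met and 4.36, 3.32 and 3.56 CPM in E2-treated Het-Met libraries, with a genotype difference of -0.41 ± 0.16 (SE, unadjusted p = 0.0230, adjusted p = 0.377) under E2. With the choroid plexus covariate in limma the Zim1 difference under E2 was -0.28 (unadjusted p = 0.207).

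Ube3a, the ubiquitin ligase that neurons read from the maternal copy, was at 72.8 and 86.1 CPM in vehicle-treated WT, 78.7 and 81.4 CPM in E2-treated WT, 55.4, 68.6 and 57.4 CPM in vehicle-treated Het-Met and 69.8, 65.2 and 62.6 CPM in E2-treated Het-Met libraries. The lowest WT library, at 72.8 CPM, lay above the highest Het-Met library, at 69.8 CPM. In log2 fold change Het-Met differed from WT by -0.39 ± 0.10 (SE, unadjusted p = 0.00113, adjusted p = 0.262) under vehicle, -0.28 ± 0.10 (SE, unadjusted p = 0.0118, adjusted p = 0.349) under E2 and -0.34 ± 0.07 (SE, unadjusted p = 0.000208, adjusted p = 0.105) over both treatments. Over both treatments DESeq2 gave an adjusted p of 0.00255 at a log2 fold change of -0.36, below the fold limit, and limma called the gene without vehicle-treated Het-Met replicate 2, with a log2 fold change of -0.38 and an adjusted p of 0.0207. After removal of the gene length trend the Ube3a values were -0.24 under vehicle, -0.15 under E2 (unadjusted p = 0.0905) and -0.19 over both treatments, and with the choroid plexus covariate the value under E2 was -0.19 (unadjusted p = 0.151). Snhg14, the RNA antisense to Ube3a, was between 8.30 and 12.3 CPM in the 10 libraries. Herc3, a further ubiquitin ligase gene, was at 175 and 189 CPM in vehicle-treated WT, 174 and 181 CPM in E2-treated WT, 163, 164 and 164 CPM in vehicle-treated Het-Met and 168, 171 and 167 CPM in E2-treated Het-Met libraries. Peg13, the noncoding RNA within an intron of Trappc9, was at 327 and 341 CPM in vehicle-treated WT, 322 and 322 CPM in E2-treated WT, 286, 309 and 309 CPM in vehicle-treated Het-Met and 317, 310.1 and 316 CPM in E2-treated Het-Met libraries. Both genotype differences were small, with -0.11 ± 0.04 (SE, unadjusted p = 0.0225, adjusted p = 0.223) for Herc3 over both treatments and -0.15 ± 0.06 (SE, unadjusted p = 0.0331, adjusted p = 0.440) for Peg13 under vehicle. After removal of the gene length trend the Herc3 value was -0.06. For Peg13 under vehicle 8 of 22 alternatives left the unadjusted p above 0.05. Igf2r, the receptor that clears the growth factor IGF2, was at 48.5 and 47.8 CPM in vehicle-treated WT, 53.0 and 53.6 CPM in E2-treated WT, 43.4, 44.5 and 47.8 CPM in vehicle-treated Het-Met and 51.3, 42.9 and 48.6 CPM in E2-treated Het-Met libraries. Its WT libraries lay above its Het-Met libraries within each treatment, as did those of the 4 members above (2.71% of all genes), by a margin under vehicle that is lost in rounding, but not across treatments.

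**Figure D4:**
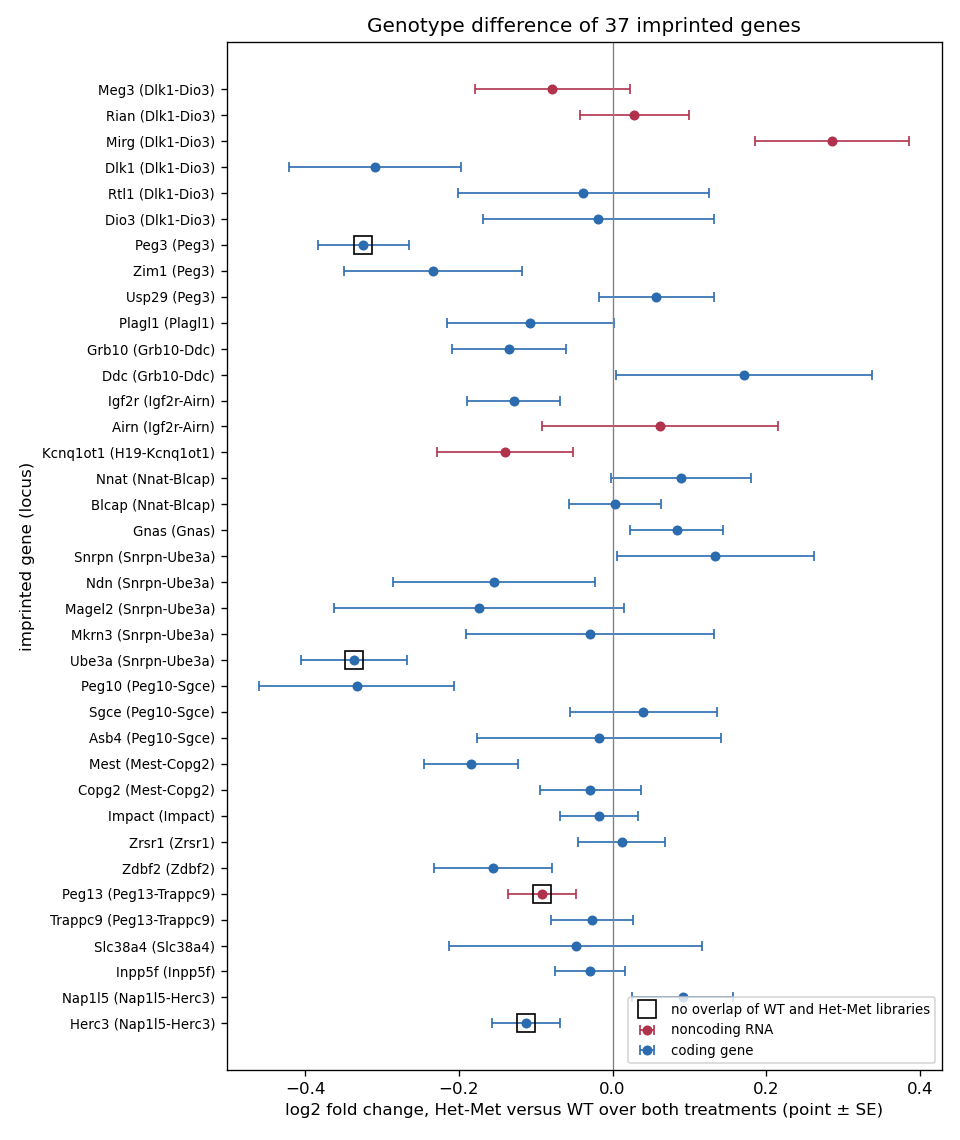
Log2 fold change of Het-Met against WT over both treatments for each of 37 imprinted genes (rows, with the locus), as the limma estimate (points) with its SE (bars), noncoding RNAs in red and coding genes in blue. Squares mark Peg3, Ube3a, Herc3 and Peg13, in which no WT library overlaps a Het-Met library, and no member passed the adjusted test.

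Of the 7 members with an unadjusted p under 0.05 for E2 in WT, 4 (Asb4, Peg10, Mest and Copg2) lie in the Peg10-Sgce and Mest-Copg2 loci of chromosome 6, and all 4 were higher under E2. Of the other tested members on chromosome 6, Nap1l5 and Herc3 differed by -0.002 and -0.03, and Sgce is given below. The grouping by chromosome was not tested. Mest and Copg2 overlap on opposite strands, so their values may not be independent. Asb4, a subunit of a ubiquitin ligase, was at 0.509 and 0.248 CPM in vehicle-treated WT, 1.21 and 1.29 CPM in E2-treated WT, 0.569, 0.555 and 0.742 CPM in vehicle-treated Het-Met and 0.636, 1.01 and 0.854 CPM in E2-treated Het-Met libraries. Both E2-treated WT libraries lay above all other libraries, at 27 and 30 reads against 11 and 5 in vehicle-treated WT. Asb4 differed by 1.01 ± 0.25 (SE, unadjusted p = 0.000933, adjusted p = 0.343) in WT and 0.63 ± 0.16 (SE, unadjusted p = 0.00128, adjusted p = 0.999) over both genotypes. Peg10, a gene derived from a retrotransposon, was at 29.1 and 25.8 CPM in vehicle-treated WT, 38.0 and 36.5 CPM in E2-treated WT, 24.0, 26.4 and 27.5 CPM in vehicle-treated Het-Met and 17.8, 24.6 and 34.1 CPM in E2-treated Het-Met libraries. Its E2 difference in WT was 0.44 ± 0.20 (SE, unadjusted p = 0.0419, adjusted p = 1.00). For that difference 5 of 22 alternatives left the unadjusted p above 0.05, among them the fit without a filter on low values. Leaving out 1 library at a time put it between 0.35 and 0.52. The genotype difference of Peg10 under E2 was -0.59 ± 0.18 (SE, unadjusted p = 0.00514, adjusted p = 0.334). It was -0.36 without E2-treated Het-Met replicate 1, which had the lowest value of 17.8 CPM. Sgce, which starts next to Peg10 on the other strand and encodes a sarcoglycan, was between 20.6 and 30.3 CPM with an E2 difference in WT of 0.01 ± 0.15 (SE).

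Mest, a hydrolase-like protein of growing tissue, was at 23.5 and 25.7 CPM in vehicle-treated WT, 30.5 and 30.0 CPM in E2-treated WT, 24.0, 25.0 and 24.2 CPM in vehicle-treated Het-Met and 23.7, 22.7 and 24.0 CPM in E2-treated Het-Met libraries. Both E2-treated WT libraries lay above the other 8 libraries, which spanned 22.7 to 25.7 CPM. Mest differed by 0.29 ± 0.09 (SE, unadjusted p = 0.00779, adjusted p = 0.834) for E2 in WT, -0.36 ± 0.09 (SE, unadjusted p = 0.000906, adjusted p = 0.316) for genotype under E2 and -0.35 ± 0.12 (SE, unadjusted p = 0.0126, adjusted p = 0.654) for the interaction. Copg2, a coat protein of transport vesicles that overlaps Mest tail to tail, was at 61.9 and 72.1 CPM in vehicle-treated WT, 79.96 and 80.6 CPM in E2-treated WT, 70.2, 73.5 and 70.2 CPM in vehicle-treated Het-Met and 63.5, 75.9 and 78.3 CPM in E2-treated Het-Met libraries, with 0.26 ± 0.10 (SE, unadjusted p = 0.0203, adjusted p = 1.00) for E2 in WT, or 0.15 (unadjusted p = 0.202) without vehicle-treated WT replicate 1. Slc38a4, an amino acid transporter, was at 2.45 and 1.88 CPM in vehicle-treated WT, 0.942 and 1.38 CPM in E2-treated WT, 1.99, 1.21 and 1.53 CPM in vehicle-treated Het-Met and 1.17, 1.38 and 1.99 CPM in E2-treated Het-Met libraries. It was lower under E2 in WT by group, with -0.69 ± 0.25 (SE, unadjusted p = 0.0163, adjusted p = 1.00), and the Het-Met groups overlapped. For E2 over both genotypes no member was without overlap (0.318% of all genes). In WT the libraries under E2 and vehicle did not overlap in 10 members that were higher (15.6% of all genes) and 4 that were lower (16.2% of all genes).

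Snrpn, a splicing protein gene at the imprinting centre of its locus, was at 1.34 and 1.29 CPM in vehicle-treated WT, 1.88 and 2.19 CPM in E2-treated WT, 2.47, 2.22 and 1.95 CPM in vehicle-treated Het-Met and 1.66, 1.34 and 1.66 CPM in E2-treated Het-Met libraries. E2-treated WT lay above vehicle-treated WT libraries, and E2-treated Het-Met lay below vehicle-treated Het-Met libraries. Snrpn differed by 0.48 ± 0.20 (SE, unadjusted p = 0.0290, adjusted p = 1.00) for E2 in WT, -0.40 ± 0.16 (SE, unadjusted p = 0.0264, adjusted p = 0.867) for E2 in Het-Met and -0.88 ± 0.26 (SE, unadjusted p = 0.00375, adjusted p = 0.407) for the interaction. Under vehicle its Het-Met libraries lay above its WT libraries (14.8% of all genes). That difference was 0.57 ± 0.18 (SE, unadjusted p = 0.00650, adjusted p = 0.357). With the choroid plexus covariate in limma it was 0.55 (unadjusted p = 0.0493). The E2 difference of Snrpn in Het-Met was then -0.38 (unadjusted p = 0.103) and its interaction -0.84 (unadjusted p = 0.0664). Of the other coding members of its locus, Magel2, between 3.38 and 8.11 CPM, was also higher in all E2-treated than in all vehicle-treated WT libraries. Its Het-Met groups overlapped. Ndn, between 117 and 203 CPM, Mkrn3, between 0.380 and 0.738 CPM, and Ube3a overlapped between treatments in each genotype. In WT the choroid plexus marker sums were also higher under E2. With these sums as a covariate the E2 difference in WT was 1.34 for Asb4, 0.25 for Mest, 0.45 for Snrpn and 0.91 for Peg10, with unadjusted p-values of 0.000796, 0.0873, 0.124 and 0.000324. For the remaining members described in WT it was 0.32 for Copg2 (unadjusted p = 0.0395 from limma), -0.41 for Slc38a4 (unadjusted p = 0.246) and -0.35 for Mirg (unadjusted p = 0.129) in the same fit.

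**Figure D5:**
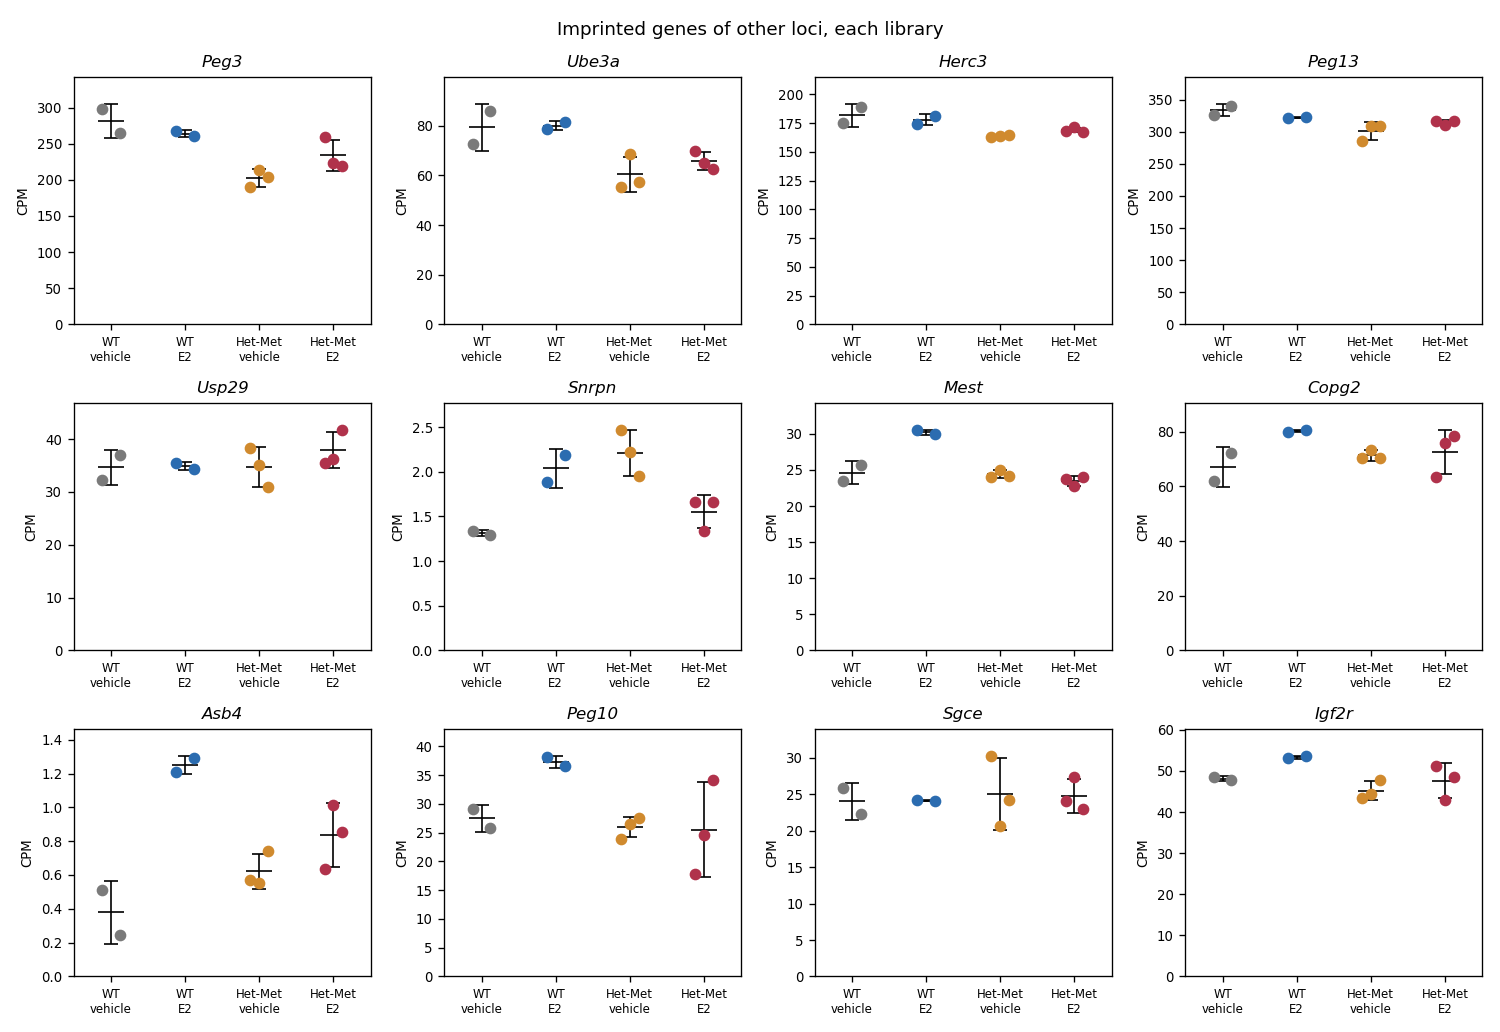
CPM of 12 imprinted genes outside the Dlk1-Dio3 locus in each library (points), with the group mean and SD (bars). Peg3, Ube3a, Herc3 and Peg13 are higher in all WT than in all Het-Met libraries, and Asb4 and Mest are highest in the E2-treated WT libraries.

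In Het-Met mice 5 members reached an unadjusted p under 0.05 for E2. Besides Dio3, Snrpn and Peg3, the Peg3 value being 0.21 ± 0.07 (SE, unadjusted p = 0.0146, adjusted p = 0.797) and 0.13 without E2-treated Het-Met replicate 1, these were Airn and Zrsr1. Airn, the noncoding RNA that silences Igf2r on the paternal copy, was at 1.25 and 0.892 CPM in vehicle-treated WT, 0.987 and 0.903 CPM in E2-treated WT, 0.712, 1.06 and 0.788 CPM in vehicle-treated Het-Met and 1.08, 1.66 and 1.28 CPM in E2-treated Het-Met libraries. E2-treated Het-Met lay above vehicle-treated Het-Met libraries, by 0.44 ± 0.19 (SE, unadjusted p = 0.0393, adjusted p = 0.872), at 15 to 36 reads per library. With the choroid plexus covariate the Airn value was 0.20 with an unadjusted p of 0.415, and 7 of 21 alternatives left it above 0.05. Igf2r itself differed by 0.07 ± 0.08 (SE) in the same comparison. The ratio of Airn to Igf2r was 0.0164 to 0.0238 in vehicle-treated and 0.0210 to 0.0387 in E2-treated Het-Met libraries, with overlap. Zrsr1, a splicing factor gene inside an intron of Commd1, was at 85.7 and 100.5 CPM in vehicle-treated WT, 91.4 and 91.2 CPM in E2-treated WT, 91.7, 90.6 and 81.9 CPM in vehicle-treated Het-Met and 94.8, 98.5 and 101 CPM in E2-treated Het-Met libraries, with 0.16 ± 0.07 (SE, unadjusted p = 0.0462, adjusted p = 0.888) for E2 in Het-Met. For Zrsr1 10 of 22 alternatives left the unadjusted p above 0.05, among them edgeR, DESeq2 and removal of the gene length trend. Libraries did not overlap between E2 and vehicle in 5 members that were higher in Het-Met mice (5.15% of all genes) and 2 that were lower (5.11% of all genes).

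The 6 noncoding members, Meg3, Rian, Mirg, Airn, Kcnq1ot1 and Peg13, were compared with the 31 coding members as groups. For E2 in WT all 6 noncoding members had a log2 fold change below 0 (median -0.15), against 8 of 31 coding members (median 0.02) and 51.0% of all genes. For E2 in Het-Met all 6 were above 0 (median 0.09), as were 17 of 31 coding members (median 0.01) and 7806 of all 15081 genes. The interaction was above 0 in all 6 (median 0.35), in 14 of 31 coding members (median -0.01) and in 7759 of all 15081 genes. Of 10 long noncoding RNAs outside imprinted loci, 8 had an interaction above 0 (median 0.20), so the direction was not confined to imprinted loci. Without vehicle-treated WT replicate 1 4 of 6 noncoding members were below 0 for E2 in WT (median -0.03). The summed CPM of 5 thalamus markers also moved with this direction: all 5 had an interaction above 0 (median 0.45, lowest adjusted p 0.0522) and were higher by group mean under E2 in Het-Met, with sums of 52.9 to 65.9 in vehicle-treated WT, 52.4 to 53.8 in E2-treated WT, 44.1 to 56.6 in vehicle-treated Het-Met and 55.9 to 81.6 in E2-treated Het-Met libraries. Their part in the noncoding values was not tested. With the choroid plexus covariate, chosen after seeing the data, 4 of 6 were below 0 for E2 in WT and 5 of 6 above 0 for the interaction. Under quantile normalization Meg3 has no difference by construction, since it was the highest gene in every library, and the other 5 kept their direction in these comparisons.

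Within the other noncoding and coding pairs, Peg13 to Trappc9 had a ratio of 3.12 to 3.79 in all libraries. Vehicle-treated WT libraries lay above vehicle-treated Het-Met and above E2-treated WT libraries in that ratio, and the genotypes overlapped under E2. Trappc9, a trafficking complex subunit, ranged from 83.6 to 95.8 CPM and differed by -0.03 ± 0.05 (SE) between genotypes. Kcnq1ot1, the noncoding RNA of the Kcnq1 domain, ranged from 27.4 to 36.7 CPM, and its coding partner in the set, Phlda2, was below 1 CPM per library. By parental copy, 22 tested members are known as paternally and 6 as maternally expressed in mouse tissue. For E2 over both genotypes 20 of 22 paternally expressed members were above 0 with a median of 0.05, against 3 of 6 maternally expressed members with a median of -0.01. Over all genes 7671 of 15081 were above 0, with a median of 0.00. After removal of the gene length trend 14 of 22 were above 0, and without E2-treated Het-Met replicate 3 also 14.

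The other 20 members had no unadjusted p under 0.05 in any comparison. Among the abundant ones, Gnas lay between 1655 and 2047 CPM, Inpp5f, a phosphoinositide phosphatase, between 137 and 151 CPM and Impact between 226 and 271 CPM. Nnat ranged from 504 to 713 CPM, and Blcap, whose intron holds Nnat, from 106 to 129.8 CPM. Nap1l5 ranged from 309.6 to 402 CPM, and it lies within an intron of Herc3. The growth regulators Grb10, an adaptor of the insulin receptor, and Plagl1, a zinc finger transcription factor, lay between 46.1 and 62.9 CPM and between 35.3 and 53.2 CPM. Ddc, the decarboxylase of monoamine synthesis, lay between 3.64 and 6.64 CPM and Zdbf2 between 32.1 and 42.2 CPM. The 95% intervals of the genotype difference over both treatments were -0.05 to 0.21 for Gnas and -0.13 to 0.07 for Inpp5f on the log2 scale.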

How the data were processed

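RNA of the vHpc was sequenced from 10 libraries, each a pool of 2 animals, with a Tru-Seq stranded RNA-seq kit. Per the labels and the methods, the authors trimmed reads, aligned them to mm10 with TopHat2 and quantified them with DESeq in Strand NGS. DESeq2 is also named in the processing notes, and the name of the deposited table gives featureCounts as the counter; versions are not given in the sources used here. The deposited values are CPM, which were whole multiples of 1 read, so reads were recovered. Groups were compared with limma 3.58.1 in R 4.3.3 on log2(CPM + 0.5) of genes averaging 0.5 CPM or more, with 4 group means, a trended prior and Benjamini-Hochberg adjustment over 15081 genes. edgeR 4.0.16 and DESeq2 1.42.0 were run on recovered reads as alternatives. The script was tested on simulated data. The members, gene lists and tests were chosen with earlier results of these data known. Every tested member is named with its level, and per-library values are given for the Dlk1-Dio3 locus, for members with an unadjusted p under 0.05 and for members without overlap between genotypes. Alternatives changed the pseudocount, filter, scaling, model and libraries. Replicate numbers gave no pairing.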

Additional observations from a re-analysis of the deposited data

Results flagged for a closer look

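Igf2, the imprinted growth factor whose receptor Igf2r is a member of the set, was not a member itself and had an E2 difference that was unlike in WT and Het-Met mice, which is why it is named here after its values were seen. It was at 131 and 117 CPM in vehicle-treated WT, 239 and 199.9 CPM in E2-treated WT, 191, 173 and 179 CPM in vehicle-treated Het-Met and 179.6, 123 and 113 CPM in E2-treated Het-Met libraries. Igf2 was higher under E2 in both WT libraries than in both vehicle-treated WT libraries, by 0.82 ± 0.16 (SE, unadjusted p = 0.000119, adjusted p = 0.120), and lower by group mean under E2 in Het-Met mice, by -0.41 ± 0.13 (SE, unadjusted p = 0.00599, adjusted p = 0.748). The interaction was -1.23 ± 0.20 (SE) with an adjusted p of 0.0454 from limma, and the same rule called 0.0729% of all genes. The adjusted p was under 0.05 in 8 of 21 alternatives and lay between 0.000492 and 1.00, with 0.0476 in edgeR and 0.0354 in DESeq2, and it was above 0.05 without any single library but E2-treated Het-Met replicate 1. The group means of the summed choroid plexus markers given above were higher in E2-treated WT and vehicle-treated Het-Met than in the other groups. With them as a covariate in limma the interaction was -0.74 with an unadjusted p of 0.0206. Its adjusted p of 0.9998 was the highest of the alternatives. In that fit the E2 difference was 0.54 in WT (unadjusted p = 0.0127) and -0.20 in Het-Met mice (unadjusted p = 0.189). The part of these markers in the Igf2 values was not tested further.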

How the results depend on the processing

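The 43 member differences at an unadjusted p under 0.05 were followed through each alternative. None of them changed sign; 774 of the values kept their side of that p, and 144 did not or became 0. Without any 1 library 14 of the 43 kept it, and 13 did so under every alternative. Directions of group summaries did change, as given in the text for the noncoding members, and the median of all members for E2 in WT went from 0.016 to -0.00044 after removal of the gene length trend, with 14 and 19 of 37 below 0. With a mean of at least 2 CPM fewer members were tested, and those at an unadjusted p under 0.05 numbered 4 for E2 in WT, 3 for E2 in Het-Met and 1 for E2 over both genotypes. For genotype over both treatments they numbered 12 with median-of-ratios scaling, 11 in edgeR and 11 in DESeq2. For E2 in Het-Met they numbered 3 in DESeq2, and the cause was not tested. The share of all genes under each alternative is not given, so changes in the counts of this section cannot be read as particular to the members. The adjusted rule called 1 member (Dlk1) for genotype under E2 when only the libraries compared were used, 1 (Dlk1) in DESeq2, and 1 (Peg3) for genotype under vehicle in DESeq2. Every WT library lay above every Het-Met library in 2 members under quantile normalization and in 2 after removal of the gene length trend, both chosen after seeing the data.

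Leaving out a single library gave 2 to 8 members for E2 in WT, the lowest without vehicle-treated WT replicate 1, with 4 and 3 without E2-treated WT replicates 1 and 2. It gave 3 to 5 for E2 in Het-Met (3 without E2-treated Het-Met replicate 2), 4 to 8 for genotype under vehicle and 5 to 9 under E2. The interaction had 3 to 10, with 3 without E2-treated WT replicate 2 and 5 without vehicle-treated WT replicate 1, E2-treated WT replicate 1 or E2-treated Het-Met replicate 1. Genotype over both treatments had 6 to 11, with 11 without replicate 3 of either Het-Met group, and the adjusted rule called 0 to 1 (Ube3a, without vehicle-treated Het-Met replicate 2). E2 over both genotypes had 1 to 6, with 6 without vehicle-treated WT replicate 3 and 1 without E2-treated WT replicate 1 or vehicle-treated Het-Met replicate 1. Where an arm keeps 1 library, it is assumed to vary like the other groups.

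With the replicate number as a block, members at an unadjusted p under 0.05 numbered 6 for E2 in WT, 4 for E2 in Het-Met, 4 and 7 for genotype under vehicle and E2, 8 for the interaction, 7 for genotype and 2 for E2 over both. Libraries with the same number did not deviate together (r from -0.17 to 0.08 over 12 pairs), so the numbers do not pair the samples. With 2 libraries per WT group, small differences could not be resolved, and Asb4, Airn, Mkrn3 and Snrpn rest on few reads.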

Other observations

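Beyond the set, 44 further imprinted genes and 22 factors that set or keep imprints had a mean of at least 0.5 CPM. Among the 44, an unadjusted p under 0.05 for genotype over both treatments was reached by 1 higher and 6 lower in Het-Met libraries, against 9.33% and 7.27% of all genes. The lower ones included Kcnk9, a potassium channel gene, at 11.2 and 11.3 CPM in vehicle-treated WT, 11.8 and 11.2 CPM in E2-treated WT, 6.07, 9.28 and 9.23 CPM in vehicle-treated Het-Met and 10.5, 7.42 and 6.92 CPM in E2-treated Het-Met libraries. Every WT library of Kcnk9 lay above every Het-Met library (1.72% of all genes), and its genotype difference was -0.46 ± 0.13 (SE, unadjusted p = 0.00332, adjusted p = 0.140). Ago2, the small RNA effector, differed by -0.45 ± 0.11 (SE, unadjusted p = 0.000949, adjusted p = 0.121). Kcnk9 and Ago2 flank Peg13 and Trappc9 on chromosome 15, where Peg13 was lower and Trappc9 overlapped between genotypes. Sfmbt2, a polycomb gene, was at 8.42 and 5.35 CPM in vehicle-treated WT, 11.5 and 12.7 CPM in E2-treated WT, 7.02, 5.85 and 4.45 CPM in vehicle-treated Het-Met and 9.004, 7.51 and 8.49 CPM in E2-treated Het-Met libraries, and its E2 difference over both genotypes was 0.66 ± 0.14 (SE, unadjusted p = 0.000220, adjusted p = 0.473).

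Among the 22 factors, 2 were higher and 4 lower in Het-Met libraries at an unadjusted p under 0.05 over both treatments, against 9.33% and 7.27% of all genes. ZFP57, the reader of methylated TGCCGC, was encoded by a gene at 12.7 to 16.1 CPM in WT and 15.2 to 19.5 CPM in Het-Met libraries, with overlap and a genotype difference of 0.23 ± 0.09 (SE, unadjusted p = 0.0251, adjusted p = 0.234). The demethylase gene Tet2 differed by -0.19 ± 0.08 (SE, unadjusted p = 0.0264, adjusted p = 0.238) and the chromatin remodeler gene Atrx by -0.14 ± 0.05 (SE, unadjusted p = 0.00856, adjusted p = 0.168). Among 10 long noncoding RNAs outside imprinted loci, Pantr1 was higher in every Het-Met than in every WT library (2.63% of all genes), by 0.46 ± 0.08 (SE, unadjusted p = 5.66e-05, adjusted p = 0.0948). None of these passed the adjusted test.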
